A study of Mus musculus with 6 samples.

Results

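The apelin and adrenomedullin peptides and their receptors were examined as a group of 8 genes, found by symbol among the 22173 genes listed in 6 retina libraries. They comprise the peptide genes Apln, Adm and Adm2, the receptor genes Aplnr and Calcrl, and the receptor partner genes Ramp1, Ramp2 and Ramp3. The OIR group (n = 3) came from wild-type C57BL/6J mouse pups kept in 75% oxygen from postnatal day 7 to day 12 and then in room air. The Control group (n = 3) came from wild-type C57BL/6J pups that stayed in room air. Whole retina was taken at postnatal day 17 in both groups, so a gene's level is that of the tissue and not of vessels alone. Oxygen-induced retinopathy (OIR) is a model in which oxygen stops retinal vessel growth, and the return to room air leaves a hypoxic retina that grows abnormal vessels. Whether the libraries of each group stem from different animals is not stated, and p-values therefore reflect the scatter among these libraries, part of which may be technical.

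Apelin, the product of Apln, is a secreted peptide that acts on the G protein-coupled receptor APJ, the product of Aplnr. In the mouse retina Apln is known as a gene of endothelial tip cells and of hypoxic tissue, and Aplnr as a gene of growing veins and capillaries. Adrenomedullin and the related peptide adrenomedullin 2 (intermedin), the products of Adm and Adm2, act on the calcitonin receptor-like receptor, the product of Calcrl. That receptor reaches the cell surface only with a receptor activity-modifying protein (RAMP). With RAMP2 or RAMP3 it binds adrenomedullin, and with RAMP1 it forms the receptor of calcitonin gene-related peptide.

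Levels are in RPKM, read numbers scaled to gene length and library size. Levels of different genes can be set side by side only as far as the gene lengths used are right, and these are not given. The length recovered from the values equalled that of a GENCODE M21 transcript for 2 of the 8 genes, Apln and Adm2. Comparisons of the same gene between libraries do not depend on it. The libraries held 35615501 to 38025623 reads. Genes of the eye lens made up 0.556% of OIR 2 reads, 6.36% of Control 3 reads and 0.0153% to 0.0586% of the reads of the other libraries. The 10 rod photoreceptor genes checked, the markers of the most abundant retinal cell, summed to 14700 to 15300 RPKM in OIR and 12200 to 14900 RPKM in Control. Over the whole retina, limma compared 12112 genes and called 11.6% higher and 7.22% lower in OIR at an adjusted p under 0.05. With median-of-ratios scaling these were 1281 and 1313 genes, against 1407 and 875 without it. Of the 8 genes, 5 reached the minimum for testing, a value of at least 1 RPKM in at least 3 libraries, and 4 of these 5 were higher in OIR. Their median log2 fold change was 0.73, against 0.03 over all genes tested. Adm reached the minimum through its OIR libraries alone, so it had to differ to be tested, and Adm2, Calcrl and Ramp1 did not reach it. Leaving out OIR 1 reduced the count of higher members to 1, and leaving out Control 1 reduced it to 2. It was 3 when any other single library was left out. Without OIR 2 those 3 included Ramp3, which did not pass with all libraries, and the Ramp2 call was lost. Adm was not testable without an OIR library.

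The sequences just upstream of the start sites of the peptide genes are shown because these were the members with the widest differences, together with that of Ramp3, a member that did not pass the test. RefSeq (GRCm38.p6) gave an entry for 6 of the 8 genes, and the authors' own build is not given in the sources used here. Each line holds the 250 bases before the start, 5′ to 3′ on the gene's strand. The core of the element bound by hypoxia-inducible factors was searched on both strands as GCGTG, which capitals mark here in either direction. The other form of this core, ACGTG, was searched in the same way and was found in none of these lines.
Apln, chrX:48034854-48035103, minus strand: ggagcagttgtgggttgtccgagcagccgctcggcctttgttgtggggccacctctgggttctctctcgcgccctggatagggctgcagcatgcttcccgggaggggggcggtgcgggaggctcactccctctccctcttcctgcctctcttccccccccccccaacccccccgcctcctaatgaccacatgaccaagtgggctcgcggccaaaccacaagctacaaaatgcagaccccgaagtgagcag
Adm, chr7:110627407-110627656, plus strand: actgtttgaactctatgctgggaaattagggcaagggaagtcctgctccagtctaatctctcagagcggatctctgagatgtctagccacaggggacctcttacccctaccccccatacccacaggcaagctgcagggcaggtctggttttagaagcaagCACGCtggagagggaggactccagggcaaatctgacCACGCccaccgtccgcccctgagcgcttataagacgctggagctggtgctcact
Adm2, chr15:89322470-89322719, plus strand: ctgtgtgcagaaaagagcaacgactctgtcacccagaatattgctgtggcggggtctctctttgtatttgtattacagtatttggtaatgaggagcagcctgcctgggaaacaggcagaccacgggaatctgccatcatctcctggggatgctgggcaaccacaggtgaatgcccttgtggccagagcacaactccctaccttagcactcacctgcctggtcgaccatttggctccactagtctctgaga
Ramp3, chr11:6658283-6658532, plus strand: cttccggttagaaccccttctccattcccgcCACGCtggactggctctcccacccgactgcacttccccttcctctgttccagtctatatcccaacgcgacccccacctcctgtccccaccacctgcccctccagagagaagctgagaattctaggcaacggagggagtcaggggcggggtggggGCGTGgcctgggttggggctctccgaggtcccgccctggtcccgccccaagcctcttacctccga
The Adm line holds GCGTG on the opposite strand at 90 to 86 and at 54 to 50 bases before the start. The Ramp3 line also holds it at 2 places, one on each strand, and the lines of Apln and Adm2 hold neither core. The entries of Calcrl and Ramp1, which are not printed, hold neither core as well. Of 32851 promoters of this length in the table, 38.6% hold at least 1 match and 16.7% hold 2 or more. A match is a description of letters and not of binding.

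Apln was at 24.7, 18.7 and 34.4 RPKM in OIR 1, OIR 2 and OIR 3, against 1.84, 1.79 and 1.85 RPKM in Control 1, Control 2 and Control 3. The Control libraries were nearly alike, while the OIR libraries spread widely and all lay far above them. The mean level in OIR was 14.2 times that in Control, and 2160 to 4119 reads in OIR libraries stood against 207 to 215 reads in Control libraries. Apln rose by 3.21 ± 0.199 (SE) on the log2(value + 1) scale, with a 95% interval of 2.73 to 3.69 and a limma adjusted p of 0.000389. On this scale its fold change ranked 3 among the 12112 genes tested from the highest, and that of Adm ranked 4. The order depends on the added value, since with a pseudocount of 0.1 the log2 fold change was 3.72 for Apln and 4.45 for Adm. Apln passed in every leave-one-out fit, with log2 fold changes from 3.00 to 3.42.

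Adm was at 10.0, 5.94 and 13.8 RPKM in OIR 1, OIR 2 and OIR 3, against 0.309, 0.329 and 0.363 RPKM in Control 1, Control 2 and Control 3. In reads this was 516, 303 and 730 in OIR, against 16, 17 and 18 in Control. The Control libraries lay together near the lower end of detection and the OIR libraries did not overlap with them. The ratio of the mean levels was 29.7. Adm rose by 2.97 ± 0.273 (SE) on the log2 scale, with a 95% interval of 2.29 to 3.64 and a limma adjusted p of 0.00302. On the log2(value + 1) scale this understates the change of a gene so low in Control, and with a pseudocount of 0.1 the log2 fold change was 4.45. Without an OIR library Adm fell short of the minimum for testing, and with no minimum its adjusted p was 0.0259, 0.000294 and 0.00769 without OIR 1, OIR 2 and OIR 3.

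Adm2 was far lower than both other peptide genes, at 0.334, 0.274 and 0.770 RPKM in OIR 1, OIR 2 and OIR 3. In Control 1 and Control 2 it was listed at 0 RPKM, where 3 reads would have given 0.0621 and 0.0623 RPKM, and Control 3 held 0.0216 RPKM. These values rest on 16, 13 and 38 reads in OIR, against 0, 0 and 1 read in Control. Per library total, the 67 OIR reads and the 1 Control read gave a ratio of 66, with an exact 95% interval of 11.4 to 2640 that covers counting error only. The groups did not overlap, with an exact two-sided permutation p of 0.1, the smallest that 3 libraries against 3 allow. With no minimum level, limma gave an adjusted p of 0.0395, in a fit that called 6.73% of 17953 genes higher. On the recovered reads, limma-voom with no minimum level gave an adjusted p of 0.00247, in a fit that called 8.59% of genes higher. The limma call was lost without OIR 1, Control 1, Control 2 or Control 3, where the adjusted p was 0.1, 0.12, 0.106 and 0.0781.

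The 3 peptide genes shared an order among the OIR libraries, with OIR 3 highest and OIR 2 lowest in each. The summed level of 23 hypoxia-inducible genes had that order too, at 3230, 2820 and 3570 RPKM in OIR 1, OIR 2 and OIR 3, against 2430, 2470 and 2290 RPKM in Control 1, Control 2 and Control 3. So did that of 16 microglia and macrophage markers, at 175, 133 and 181 RPKM in OIR, against 53.5, 57.3 and 61 RPKM in Control. In all, 6 of 14 gene lists had this order in their summed levels, the tip-cell, red cell, astrocyte and other apelin pathway lists included, so it was not particular to hypoxia or microglia genes. OIR 2 was also the OIR library with the most lens reads. Whether these differences have a part in the order of the peptide genes was not tested.

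**Figure D1:**
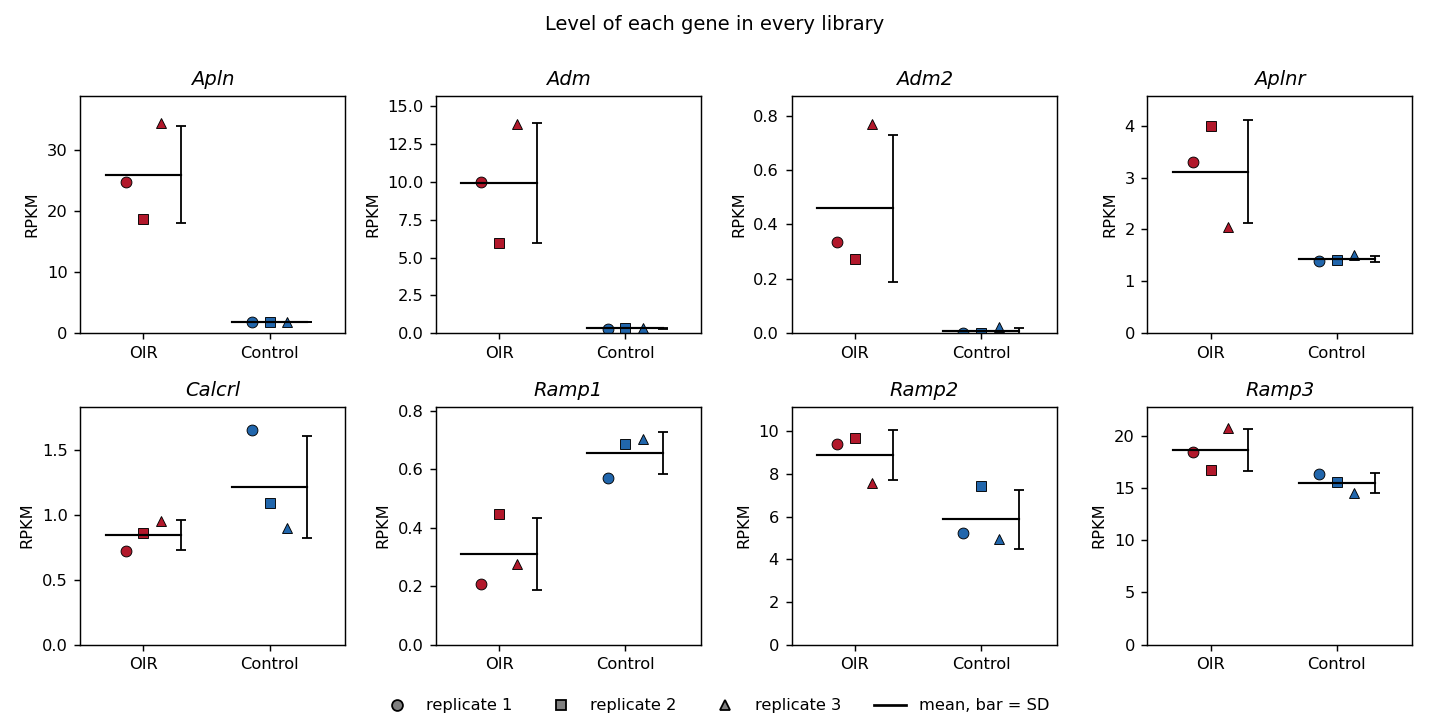
Level of each of the 8 genes in RPKM (y axes from 0, a scale of its own for each gene) in the 3 OIR and 3 Control libraries, with the mean as a line and the SD as a bar. Apln, Adm and Adm2 stand apart most, Aplnr and Ramp2 less so, Ramp1 lies lower in OIR, and Calcrl overlaps between groups.

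Aplnr, the apelin receptor gene, was at 3.30, 4.0 and 2.05 RPKM in OIR 1, OIR 2 and OIR 3, against 1.40, 1.41 and 1.5 RPKM in Control 1, Control 2 and Control 3. Every OIR library lay above every Control library, but the order within OIR was the opposite of that of the peptide genes, with OIR 2 highest and OIR 3 lowest. The mean level in OIR was 2.17 times that in Control. Aplnr rose by 0.73 ± 0.158 (SE) on the log2 scale, with a 95% interval of 0.37 to 1.09 and a limma adjusted p of 0.0157. Leaving out OIR 1 gave 0.68 on the log2 scale at an adjusted p of 0.0838, and leaving out Control 1 or Control 2 gave 0.72 at 0.0698 and 0.0587, so the call was lost in these 3 fits. The difference was 0.57 without OIR 2 and 0.93 without OIR 3. With no minimum level the call was lost without Control 3 too, at 0.0824.

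Calcrl, the gene of the receptor that adrenomedullin and intermedin share, was at 0.724, 0.856 and 0.955 RPKM in OIR 1, OIR 2 and OIR 3. In Control 1, Control 2 and Control 3 it was at 1.65, 1.09 and 0.897 RPKM. The groups overlapped, since OIR 3 lay above the lens-rich Control 3, and the highest value by far was that of Control 1. This overlap ended, narrowly, when lens reads were taken out of the totals, where OIR 3 stood at 0.955 and Control 3 at 0.958 RPKM, and it ended with median-of-ratios and upper-quartile scaling too. Between 129 and 175 reads in OIR and between 154 and 296 reads in Control stand behind these levels. As deposited, 7 of the 8 members had groups that did not overlap, against 32.7% of the genes above 0 in any library, and Calcrl was the exception. The difference was -0.25 on the log2(value + 1) scale, with an exact two-sided permutation p of 0.2, or 0.1 under each of these 3 scalings, and the limma fit with no minimum level gave an adjusted p of 0.258. Without Control 1 the difference was -0.11.

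**Figure D2:**
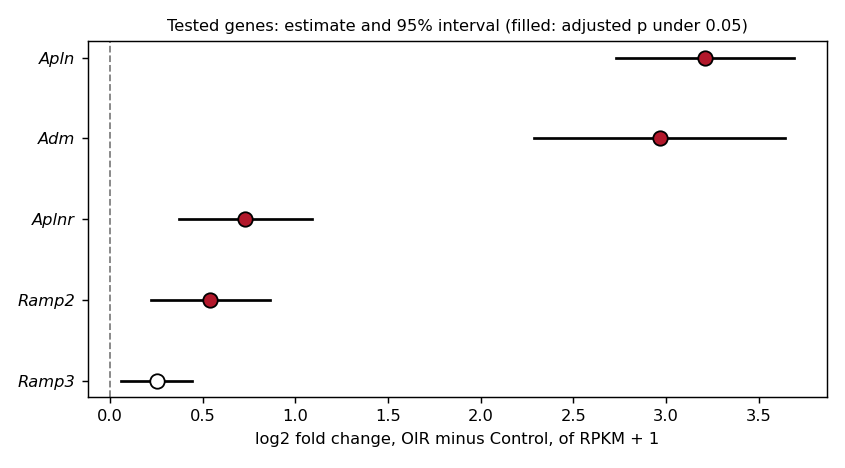
Log2 fold change of OIR against Control on the log2(RPKM + 1) scale with its 95% interval for the 5 tested genes, filled where the adjusted p was under 0.05. Apln and Adm lie near 3, Aplnr at 0.73 and Ramp2 at 0.54, and Ramp3 at 0.25 did not pass.

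Ramp2, the partner that makes Calcrl an adrenomedullin receptor in endothelial cells, was at 9.40, 9.71 and 7.57 RPKM in OIR 1, OIR 2 and OIR 3. Its levels in Control 1, Control 2 and Control 3 were 5.21, 7.45 and 4.96 RPKM. OIR 3 and Control 2 lay close together, and the other libraries were clearly apart. Ramp2 rose by 0.54 ± 0.141 (SE) on the log2 scale, with a limma adjusted p of 0.0313. Dropping OIR 1, OIR 2, Control 1 or Control 3 lost this call, the adjusted p then being 0.13, 0.0703, 0.115 and 0.0846. It was lost as well without both lens-rich libraries, OIR 2 and Control 3, at 0.14 and a log2 fold change of 0.38, and with no minimum level, at 0.0691. In the GENCODE M21 annotation an exon of Ramp2 overlaps one of Vps25 on the same strand, and Vps25 was at 48.7 to 50.7 RPKM in all libraries, so the reads of the shared part cannot be assigned to either gene.

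Ramp3, the other adrenomedullin receptor partner, was at 18.5, 16.7 and 20.8 RPKM in OIR 1, OIR 2 and OIR 3, against 16.4, 15.6 and 14.5 RPKM in Control 1, Control 2 and Control 3. The groups did not overlap, but OIR 2 and Control 1 were almost level. The difference was 0.25 ± 0.0859 (SE) on the log2 scale, with a 95% interval of 0.06 to 0.44, and at a limma adjusted p of 0.0662 Ramp3 did not pass. It passed without OIR 2, at 0.0157, and without both lens-rich libraries, at 0.0194. The annotation places an antisense gene model, Gm11978, over an exon of Ramp3, and without knowledge of strand their reads cannot be told apart.

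Ramp1, the partner that turns Calcrl into the receptor of calcitonin gene-related peptide, was at 0.206, 0.446 and 0.276 RPKM in OIR 1, OIR 2 and OIR 3. In Control 1, Control 2 and Control 3 it was at 0.571, 0.687 and 0.703 RPKM. It was the member whose OIR libraries all lay below its Control libraries, a pattern found in 12.2% of the genes above 0 in any library. The reads were 34, 73 and 47 in OIR, against 95, 114 and 112 in Control. The mean level in OIR was 0.473 of that in Control, and the difference was -0.34 on the log2(value + 1) scale, with an exact two-sided permutation p of 0.1. With no minimum level, limma gave an adjusted p of 0.0406, in a fit that called 2.95% of genes lower. Only the fit without OIR 2 kept that call, and the adjusted p was 0.138 and 0.13 without OIR 1 and OIR 3, and 0.0927, 0.11 and 0.0834 without Control 1, Control 2 and Control 3. On the recovered reads, limma-voom with no minimum gave a log2 fold change of -1.14, on a log2 scale of read counts. The limma-voom adjusted p was 0.0266, in a fit that called 5.01% of genes lower.

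Summed over the 3 partner genes, the level was 28.1, 26.9 and 28.7 RPKM in OIR 1, OIR 2 and OIR 3, against 22.2, 23.8 and 20.1 RPKM in Control 1, Control 2 and Control 3. Ramp3 held most of it, 66.9 ± 5.3% in OIR and 70.5 ± 4.24% in Control (SD, n = 3 each). Ramp1 held 1.12 ± 0.482% in OIR and 2.98 ± 0.465% in Control. The receptor gene Calcrl stood far below its partners, at 0.0303 ± 0.00398 of their summed level in OIR and 0.0549 ± 0.0169 in Control.

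**Figure D3:**
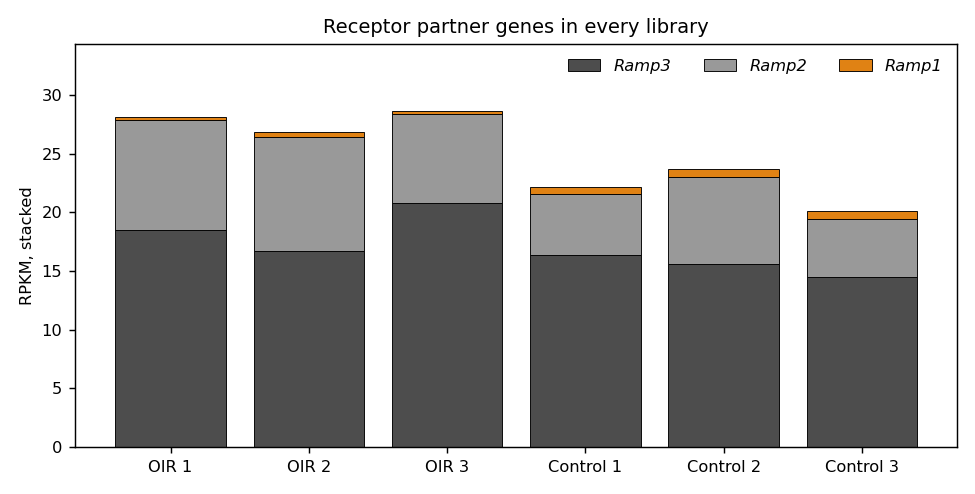
Stacked levels of Ramp3, Ramp2 and Ramp1 in RPKM (y axis) in each of the 3 OIR and 3 Control libraries (x axis). Ramp3 makes up most of each bar, and the Ramp1 section is thinner in the OIR libraries.

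The order of the levels differed between the groups. In OIR the means ran from Apln at 25.9 RPKM through Ramp3 at 18.7, Adm at 9.91, Ramp2 at 8.89, Aplnr at 3.12, Calcrl at 0.845 and Adm2 at 0.459 to Ramp1 at 0.309 RPKM. The ranges of Apln and Ramp3, of Adm and Ramp2, of Calcrl and Adm2, and of Adm2 and Ramp1 overlapped in OIR, so these neighbours are not apart beyond their spread. In Control they ran from Ramp3 at 15.5 RPKM through Ramp2 at 5.87, Apln at 1.82, Aplnr at 1.44, Calcrl at 1.21, Ramp1 at 0.654 and Adm at 0.333 to Adm2 at 0.00721 RPKM. There the neighbours with overlapping ranges were Aplnr and Calcrl. Thus Adm stood below Calcrl and every RAMP gene in Control and above Calcrl, Ramp1 and the mean of Ramp2 in OIR.

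Within a library, Apln stood at 7.48, 4.68 and 16.8 times the level of Aplnr in OIR 1, OIR 2 and OIR 3, against 1.31, 1.27 and 1.23 times in Control 1, Control 2 and Control 3. In RPKM, with the gene length used for Aplnr unchecked, peptide and receptor RNA were close to level in Control. In OIR the ratio was higher in every library than in any Control library. On the log2(value + 1) scale the difference of Apln and Aplnr was 2.70 ± 0.785 in OIR and 0.21 ± 0.025 in Control, with an exact two-sided permutation p of 0.1. Adm stood at 13.8, 6.94 and 14.4 times the level of Calcrl in OIR 1, OIR 2 and OIR 3. In Control 1, Control 2 and Control 3 it stood at 0.187, 0.301 and 0.404 times that level. The peptide RNA was below the receptor RNA in each Control library and above it in each OIR library. The difference of Adm and Calcrl was 2.50 ± 0.53 in OIR and -0.72 ± 0.276 in Control, again with an exact p of 0.1. Over the family of 8 such exact tests, these 2 p-values adjust to 0.16.

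**Figure D4:**
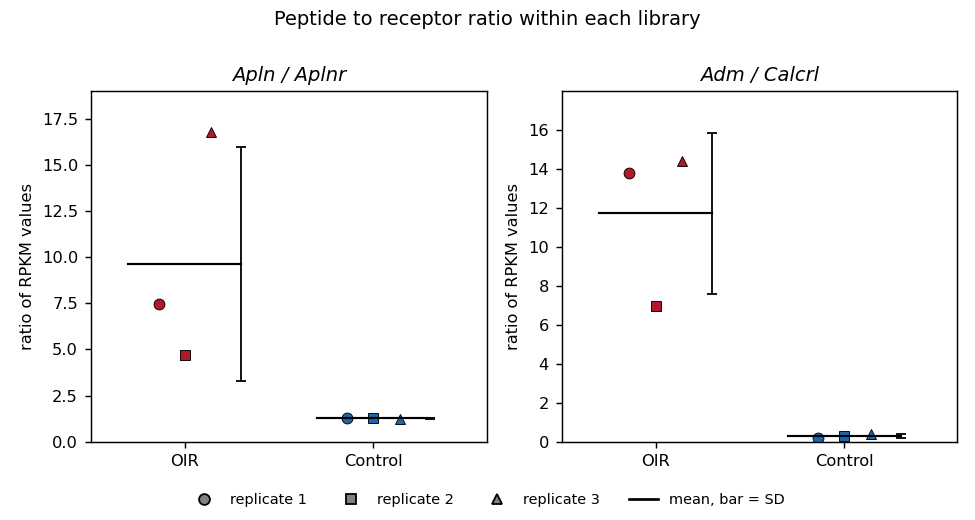
Ratio of the RPKM value of the peptide gene to that of its receptor gene (y axes from 0) within each of the 3 OIR and 3 Control libraries, with the mean as a line and the SD as a bar. The Apln to Aplnr ratio is 4.68 to 16.8 in OIR and 1.23 to 1.31 in Control, and the Adm to Calcrl ratio is 6.94 to 14.4 in OIR and 0.187 to 0.404 in Control.

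Endothelial markers were higher in OIR together with Aplnr and Ramp2. Of 17 tested endothelial genes, 15 were higher in OIR and none lower, and the summed level of the 18 listed was 145 to 158 RPKM in OIR and 77.8 to 83.6 RPKM in Control, with none at 0. Of the 17, 3 reached the minimum level through their OIR libraries alone and so had to be higher to be tested, and 12 of the other 14 were higher. The median difference over all 18 listed genes was 0.94 on the log2(value + 1) scale. In whole retina, more cells of a type and more RNA per cell cannot be told apart. Set against the mean log2(value + 1) level of the 17 markers in the same library, Aplnr lay at -0.81, -0.49 and -1.26 in OIR 1, OIR 2 and OIR 3, against -0.76, -0.75 and -0.67 in Control 1, Control 2 and Control 3. The Control values fell inside the OIR range, with a difference of -0.12 and an exact two-sided permutation p of 0.7. Without OIR 3 the Aplnr difference was 0.08. Without OIR 2 it was -0.30 with an exact permutation p of 0.1, and the remaining OIR libraries lay below every Control library. Ramp2 lay at 0.44 ± 0.191 in OIR and 0.75 ± 0.268 in Control, a difference of -0.31 with an exact p of 0.3. With a pseudocount of 0.1 the Ramp2 difference was -0.52, with an exact permutation p of 0.1, the smallest possible here. Without OIR 3 or Control 2 it was -0.21 and -0.16 on the log2(value + 1) scale.

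Relative to these markers Calcrl was lower in every OIR library than in any Control library. It lay at -2.13, -1.92 and -1.90 in OIR 1, OIR 2 and OIR 3, against -0.62, -0.96 and -1.07 in Control 1, Control 2 and Control 3. The groups did not overlap, with a difference of -1.10, an exact two-sided permutation p of 0.1 and an adjusted p of 0.16 over the 8 tests. Leaving out each library in turn gave differences from -1.19 to -0.97, and a pseudocount of 0.1 gave -1.56. The 3 markers tested through OIR alone raise the OIR mean by construction. The difference was -1.11 without them and -1.07 against all 18 listed markers. The mean of the markers was 2.86 ± 0.055 in OIR and 2.01 ± 0.0177 in Control on this scale (SD, n = 3 each), so most of this difference lies in the markers and the rest in Calcrl.

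**Figure D5:**
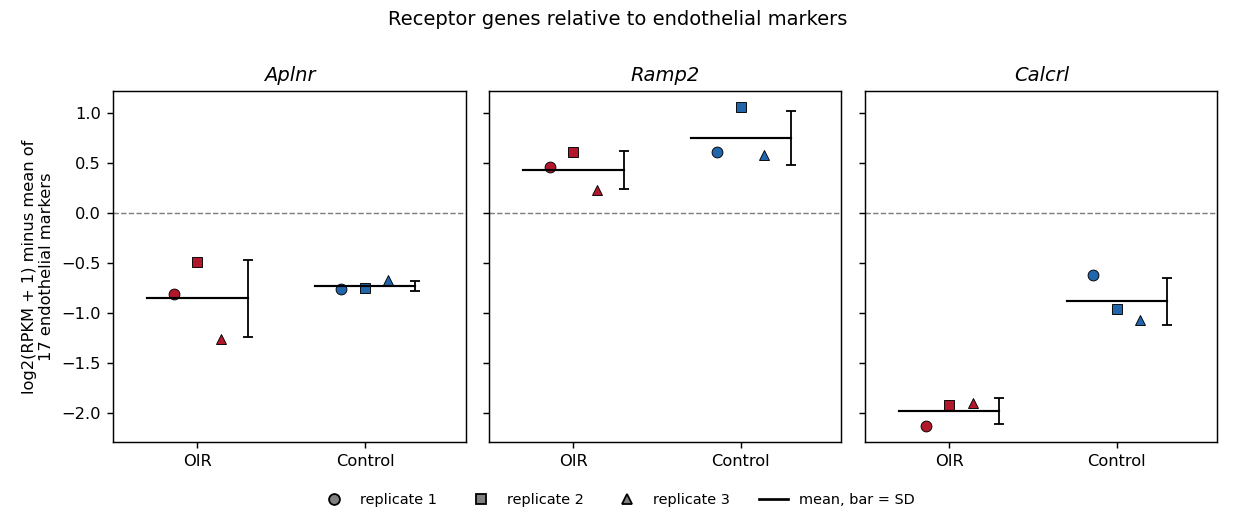
Level of Aplnr, Ramp2 and Calcrl minus the mean of 17 endothelial markers in the same library, on the log2(RPKM + 1) scale (y axis), in the 3 OIR and 3 Control libraries, with the mean as a line and the SD as a bar. Aplnr overlaps between the groups, Ramp2 overlaps too, and Calcrl lies at -2.13 to -1.90 in OIR and -1.07 to -0.62 in Control.

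Markers of other cell types in the retina differed too. Of 13 tested tip-cell genes, without Apln, 9 were higher and none lower, and their 15 genes summed to 98.9 to 150 RPKM in OIR and 33.0 to 104 RPKM in Control, where the highest value was that of Control 3. Of these 13, 3 reached the minimum through OIR alone. The count was 12 of 13 without Control 3, 7 of 13 without Control 1 or Control 2, and 5, 7 and 6 of 10 without OIR 1, OIR 2 and OIR 3. Of 11 pericyte and smooth muscle genes, 2 of them tested through OIR alone, 7 were higher, with sums of 428 to 508 RPKM in OIR and 358 to 410 RPKM in Control, and 3 of 9 were higher without OIR 1. Of 15 microglia and macrophage genes, 13 were higher. Of 22 hypoxia-inducible genes, 16 were higher and none lower, among them Vegfa and Ndufa4l2, and 7 were higher without OIR 1 and 8 without Control 1. Of 14 ganglion cell genes, 7 were lower and none higher. The lower count was 13 without OIR 2, 1 without OIR 1, OIR 3 or Control 1, and 3 without Control 2 or Control 3. Of 13 Müller glia genes, 6 were lower and 3 higher, and of 6 astrocyte genes 2 were higher. The Müller glia counts were 2 lower and 2 higher without OIR 1, 6 lower and 2 higher without OIR 2, 4 lower and 1 higher without OIR 3 or Control 1, and 5 lower and 2 higher without Control 2. The astrocyte count was 4 without OIR 2 and 1 without any other single library. The 4 red cell genes tested were all higher with all libraries and without OIR 2, but none passed without OIR 1, 1 passed without Control 1 or Control 2, and 2 without OIR 3 or Control 3. The part of these cell types in the levels of the 8 genes was not tested.

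Other genes of the apelin pathway showed smaller differences than the peptide gene. Of 12 tested of 17 listed, 3 were higher and 1 lower, with a median log2 fold change of 0.15. The higher count was 1 without OIR 1, OIR 3, Control 1 or Control 2. Gnai2, the gene of an inhibitory G protein subunit through which APJ signals, rose to 188 ± 18.3 RPKM in OIR, against 130.8 ± 7.3 RPKM in Control (limma adjusted p 0.00334). Gnai1, its relative, fell to 9.84 ± 1.8 RPKM in OIR, against 14.6 ± 1.14 RPKM in Control (limma adjusted p 0.0115). Furin, the gene of a protease that cuts proapelin, was higher by a log2 fold change of 0.23, and Gna13, the gene of another G protein subunit, by 0.28. The call of Gnai1 was lost without OIR 1 or Control 1, with adjusted p of 0.0513 and 0.0531. The calls of Furin and Gna13 were lost without OIR 1, OIR 3, Control 1 or Control 2, with adjusted p of 0.0756 to 0.172, and that of Gna13 also without Control 3, at 0.0836. Apela, the gene of the second APJ ligand, was at 2.85, 2.55 and 2.92 RPKM in OIR 1, OIR 2 and OIR 3, against 4.96, 4.77 and 2.43 RPKM in Control 1, Control 2 and Control 3. Its groups overlapped through the lens-rich Control 3, and it did not pass, with a log2 fold change of -0.38 and an adjusted p of 0.259. Without Control 3 it passed, at -0.64 and 0.00731, and without both lens-rich libraries at -0.59 and 0.00105. Nos3, the endothelial nitric oxide synthase gene, did not pass, at 2.41 ± 0.354 RPKM in OIR and 1.84 ± 0.312 RPKM in Control. Mme, the gene of a peptidase that cuts apelin, was too low to test, at 0.141 to 0.215 RPKM in OIR. Its Control levels were 0.244 and 0.37 RPKM in Control 1 and Control 2, and 1.29 RPKM in the lens-rich Control 3.

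Among 10 other genes of the calcitonin peptide family and of adrenomedullin handling, 4 reached the minimum level and 1 passed. Pam, the gene of the enzyme that amidates adrenomedullin, fell to 11.2, 14.8 and 14.1 RPKM in OIR 1, OIR 2 and OIR 3, against 18.7, 16.2 and 17 RPKM in Control 1, Control 2 and Control 3. Its log2 fold change was -0.35 and its limma adjusted p 0.0317, and the call was lost when any single library other than OIR 2 was left out, at 0.0504 to 0.128. Ackr3, whose product also binds adrenomedullin and removes it, had a log2 fold change of -0.01 with a 95% interval of -0.35 to 0.34. Crcp, the gene of a further component of the calcitonin gene-related peptide receptor, did not pass, at a limma adjusted p of 0.122. Calca, the gene of calcitonin gene-related peptide, was at 0.554 ± 0.0986 RPKM in OIR and 0.687 ± 0.0871 RPKM in Control. Calcr, the calcitonin receptor gene, did not exceed 0.0831 RPKM in any library, and Iapp was listed at 0 RPKM in all 6.

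Of 15 tested genes of Gs and cyclic AMP signalling, through which Calcrl acts, 2 were higher and 6 lower, with a median log2 fold change of -0.14. Adcy6, the gene of an adenylyl cyclase, rose to 22.2 ± 1.66 RPKM in OIR, against 16.2 ± 1.14 RPKM in Control (limma adjusted p 0.00556). Rasip1, the gene of an endothelial protein of vessel lumen formation, rose to 2.75 ± 0.118 RPKM in OIR, against 1.85 ± 0.212 RPKM in Control. Rapgef4, the gene of a cyclic AMP-activated exchange factor found in neurons, fell to 3.52 ± 0.682 RPKM in OIR, against 5.41 ± 0.232 RPKM in Control (limma adjusted p 0.0103). Prkacb, the gene of a catalytic subunit of protein kinase A, fell by a log2 fold change of 0.35. The count of lower genes was 1 without OIR 1, OIR 3, Control 1 or Control 2, among the lost calls that of Prkacb at 0.0563 to 0.0935. The call of Rasip1 was lost without OIR 1, at 0.0556.

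The genes whose log2(value + 1) levels followed Apln most closely over the 6 libraries were Itga1, Mmp14, Col5a3, Mpeg1 and Nol6, with Pearson r from 0.9976 to 0.9987. For Adm they were Fcrls, Ddr1, Fn1, Inka1 and H2-Ab1, with r from 0.9980 to 0.9992. Itga1 encodes a collagen-binding integrin chain, Mmp14 a membrane-bound matrix metalloproteinase, and Col5a3 a collagen chain. Mpeg1 and Fcrls are genes of macrophages and microglia, and H2-Ab1 encodes a class II antigen-presenting chain. Fcrls, the nearest to Adm, was at 5.61, 3.69 and 6.98 RPKM in OIR 1, OIR 2 and OIR 3, against 0.679, 0.763 and 0.832 RPKM in Control 1, Control 2 and Control 3. Fcrls was picked for its likeness to Adm over these same libraries, so a shared gap between the groups and a shared order of the OIR libraries follow from the choice. Like Adm, the genes Fcrls, Itga1 and Inka1 reached the minimum for testing through their OIR libraries alone. The 6 libraries form 2 separate groups, so such an r is high for any gene whose gap between the groups is wide against the spread within them, and it is given as a description only. The call of Nol6, at a log2 fold change of 0.21, was lost when any single library other than Control 3 was left out and with median-of-ratios scaling.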

How the data were processed

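Whole-retina RNA was sequenced in 3 OIR and 3 Control libraries, grouped by sample title. Per the deposited files, each library has 1 RPKM value per gene symbol, computed by the authors. Per the submitters' processing notes, the tools included TopHat2 2.0.12 and Bowtie2 2.0.6. Build, annotation, counting program and strand were not given in the sources used here, and the library text in the labels describes another species. Read numbers were recovered as whole multiples, within 0.02 of a read, of the step of 1 read, with GENCODE M21 transcript lengths fixing the totals. This worked for 99.9% of the 17953 genes above 0. The gene length was free in this search, so for genes above 0 in only a few libraries some length can fit by chance. For such genes a fit is no check of the recovered reads. RPKM values are not counts, so a count model was not used as the main test. The main test was limma 3.58.1 in R 4.3.3 on log2(value + 1) with trend and robust options, for genes of at least 1 RPKM in at least 3 libraries, two-sided with Benjamini-Hochberg adjustment over 12112 genes and a threshold of 0.05. Members below that level, and differences within a library, were compared by exact permutation over libraries. This limma step was also tested on simulated data with known changes. Those data had the same noise setting for all genes and no lens-rich library, so they do not show its error rate in these libraries. Members, lists, tests and named genes (all members, pathway genes past the threshold, up to 4 of each list, and the 5 genes most like Apln and Adm) were chosen with earlier results of these data known. Alternatives were other scalings, pseudocounts and filters, a replicate block, left-out libraries and limma-voom on recovered reads. Intervals on reads cover counting error only. No libraries of a group agreed within sampling noise. Some genes of the pathway lists are not reported here.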

Additional observations from a re-analysis of the deposited data

How the results depend on the processing

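Over 162 alternative values for the 8 genes none reversed a direction. Of the 129 with an adjusted p, 100 kept the side of the threshold. Adm2, Calcrl and Ramp1 were untested in the main fit and were counted there as not past it. For these genes a kept side is therefore no measure of stability. The other 33 are exact tests of Adm2, Calcrl and Ramp1 that cannot pass at this number of libraries and say nothing of stability. The call of Apln held in all 22, while that of Aplnr ended in 7 of 22 and that of Ramp2 in 13 of 22. That of Adm held in all 17 that could test it. Those of the 17 with a minimum level could test Adm only because its OIR libraries are high, so they say little of its stability. The fits with no minimum level in which a library was left out, limma-voom with no minimum and the other endothelial marker sets were added after seeing the data. With no minimum level the log2 fold changes of Adm2, Ramp1 and Ramp2 were 0.52, -0.34 and 0.54, with the first 2 then past the threshold and Ramp2 not. With limma-voom on recovered reads and no minimum they were 4.82, -1.14 and 0.61, with the same calls, and Ramp2 had an adjusted p of 0.0526. These sizes are on a log2 scale of read counts and cannot be compared with those on the log2(value + 1) scale. Without both lens-rich libraries Ramp2 was at 0.38 and no longer passed, and Ramp3 was at 0.28 and passed. Leaving out each library in turn gave log2 fold changes of 0.57 to 0.93 for Aplnr, 0.37 to 0.61 for Adm2, -0.41 to -0.28 for Ramp1, 0.44 to 0.69 for Ramp2 and 0.17 to 0.32 for Ramp3. The difference of Aplnr and the endothelial markers was -0.30 to 0.08 and turned positive without OIR 3. Counts over all genes ran from 410 to 1645 higher and from 198 to 1281 lower with a library left out. The genes lower in OIR numbered 1313 with median-of-ratios scaling, 1355 with upper-quartile scaling, 529 with no minimum level and 1877 without both lens-rich libraries. With a further minimum of 1 for the size of the log2 fold change, 115 genes were higher and 4 lower. The cause of these shifts was not tested. Deviations of same-numbered libraries correlated at 0.22, -0.44 and -0.41, and those of the lens-rich OIR 2 and Control 3 at 0.49. With so few libraries and 2 of them rich in lens reads, these values cannot tell whether replicate numbers pair the samples. With the replicate block 1222 genes were higher and 809 lower, and the log2 fold changes were 3.21 for Apln, 2.97 for Adm, 0.73 for Aplnr, 0.54 for Ramp2 and 0.25 for Ramp3, with no call changed. Adm2, with at most 38 reads, and Ramp1, with at most 114, are the members most limited by depth.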
